A study of Mus musculus with 12 samples.

Results

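The genes described here are 10 imprinted genes that are known for their expression in the hypothalamus, Magel2, Ndn, Snrpn, Peg3, Dlk1, Meg3, Gnas, Nnat, Mest and Cdkn1c. They were chosen by symbol from the 38283 genes of the table and each had 1 row. RNA was sequenced from the arcuate nucleus (ARC), the hypothalamic nucleus that holds the AGRP and POMC neurons of feeding control, in 5 libraries of wild-type (WT) and 7 of homozygous R299Q γ2 (Homo) mice. The R299Q γ2 mice carry a germline knockin of the R299Q change in Prkag2, the gene of the γ2 subunit of the energy sensor AMPK, so every tissue and cell type carried the allele from conception. All animals were freely fed C57BL/6 males, 8 weeks old in the study's account, and the ARC was cut from coronal sections by laser capture. Whether each library came from a separate mouse is not stated in the sources used here, so p-values measure the spread between these libraries. The comparison asks whether imprinted transcripts of the ARC differed between the genotypes.

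An imprinted gene is transcribed mainly from the copy inherited from one parent, and the silent copy is set in the germ line by DNA methylation of a control region that is shared by neighbouring genes. Imprinted genes therefore lie in clusters, and many of them act in growth, neuroendocrine neurons and feeding. Loss of the paternally expressed cluster that holds MAGEL2, NDN and SNRPN causes Prader-Willi syndrome in humans, with overeating and obesity. The values here were totals over both parental copies, and they carried no allele information.

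Promoter sequences are shown for the members whose window held a motif tied to imprinting or to this cluster, so that their letters can be read beside the expression values. The 250 bases before the RefSeq start site (GRCm38.p6) are written 5′ to 3′ on the gene's strand, with capitals for TGCCGC, the core bound by the imprint guardian ZFP57, and for GCATGCG, the core bound by the activator NRF1, each searched on both strands with overlapping matches merged.
Nnat promoter, chr2:157559828-157560077, plus strand: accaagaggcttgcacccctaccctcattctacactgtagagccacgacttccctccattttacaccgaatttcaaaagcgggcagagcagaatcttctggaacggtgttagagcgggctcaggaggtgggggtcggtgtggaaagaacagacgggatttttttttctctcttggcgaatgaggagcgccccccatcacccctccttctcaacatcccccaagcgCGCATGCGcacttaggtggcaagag
Snrpn promoter, chr7:60005200-60005449, minus strand: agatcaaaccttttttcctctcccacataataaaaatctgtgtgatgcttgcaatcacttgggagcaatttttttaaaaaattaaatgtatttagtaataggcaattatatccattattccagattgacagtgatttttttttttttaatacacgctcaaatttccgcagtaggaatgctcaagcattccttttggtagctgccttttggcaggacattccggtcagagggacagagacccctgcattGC
Ndn promoter, chr7:62348027-62348276, plus strand: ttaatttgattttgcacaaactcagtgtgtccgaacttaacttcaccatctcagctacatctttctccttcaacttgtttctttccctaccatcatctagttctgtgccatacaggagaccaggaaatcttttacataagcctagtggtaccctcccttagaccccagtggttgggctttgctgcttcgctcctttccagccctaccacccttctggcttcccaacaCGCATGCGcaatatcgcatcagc
Mest promoter, chr6:30737800-30738049, plus strand: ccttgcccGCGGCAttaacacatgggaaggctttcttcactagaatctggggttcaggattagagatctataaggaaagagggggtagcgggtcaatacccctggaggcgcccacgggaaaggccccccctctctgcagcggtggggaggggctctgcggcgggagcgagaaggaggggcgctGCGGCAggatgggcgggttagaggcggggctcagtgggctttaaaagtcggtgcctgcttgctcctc
Meg3 promoter, chr12:109540746-109540995, plus strand: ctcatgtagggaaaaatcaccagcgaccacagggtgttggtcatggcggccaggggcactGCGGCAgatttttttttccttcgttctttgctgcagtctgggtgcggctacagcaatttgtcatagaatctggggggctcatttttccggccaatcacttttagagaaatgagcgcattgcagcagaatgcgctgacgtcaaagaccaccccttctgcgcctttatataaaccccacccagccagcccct

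Over the searched window, which ran on for 50 bases past the start, TGCCGC was found in 5 of the 18 promoters of the 9 members with a RefSeq entry, counting alternative starts, and in 11.6% of all 32851 promoters. The 5 belong to Nnat, Snrpn, Mest and Meg3, and the starts of 1 gene can overlap. The Mest window held it 242 and 67 bases before the start and the Meg3 window 190 bases before it. In Snrpn it began 2 bases before the start, so only its first letters are shown, and in Nnat it lay 27 bases past the start, outside the printed stretch. GCATGCG was found in 6 of the 18 member promoters and in 3.58% of all promoters, as the run CGCATGCG in the printed Nnat and Ndn sequences, 25 and 23 bases before the start. The other 4 were starts of Snrpn, with the match 36 bases past the printed start and 63, 71 and 78 bases before the starts upstream of it. By gene, GCATGCG was in 3 of the 9 members and TGCCGC in 4. No share by gene was taken over all promoters, so the excess by promoter was not tested. A match describes letters and does not show that a protein binds. The 18 member promoters held a median of 12 CG pairs in 300 bases against 7 over all promoters, and ranged from 1 in a downstream start of Meg3 to 40 in a start of Gnas. Magel2, Peg3, Dlk1 and Gnas had neither motif, and Cdkn1c had no entry.

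The members spanned the whole range of ARC expression. Levels were compared between genes as FPKM, fragments scaled to the transcript's length and to the library's size. Nnat, which encodes a small membrane proteolipid of neuroendocrine cells, ranked 26 of the 14017 genes with a mean of at least 1 FPKM, with a mean level of 4505 FPKM. Gnas ranked 98 (691 FPKM), Ndn 167 (417 FPKM), Peg3 313 (222 FPKM), Dlk1 434 (154 FPKM) and Snrpn 510 (133 FPKM). The place of Snrpn is that of its own row. Snurf, a reading frame on the same transcript, had a separate row with a mean of 1555 FPKM. How fragments were divided between them is not known. Lower down stood Mest at 35.4 FPKM, Meg3 at 34.0 FPKM, Magel2 at 15.7 FPKM and Cdkn1c at 1.49 FPKM, the last at rank 12912. Of the 9 steps in this order, 7 held within libraries, with an exact two-sided sign-flip test over the 12 libraries giving adjusted p-values of 0.000879 to 0.0138 over the 9 steps, and Magel2 was below Meg3 in 10 of 12 libraries. Dlk1 was above Snrpn in 6 of 12 libraries (exact p = 0.226) and Mest above Meg3 in 6 of 12 (exact p = 0.524), so these neighbours did not differ beyond their spread.

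None of the 10 members passed the test between genotypes (limma on log2(FPKM + 1), adjusted p under 0.05), and none had an unadjusted p under 0.05. Over all 14017 genes tested, 1 gene (0.00713%) was called, Jarid2, which was listed at 0 in every Homo library, and 5.55% of genes had an unadjusted p under 0.05 (2.5% lower and 3.05% higher in Homo). The median log2 fold change of the members was -0.06, with 3 of 10 higher in Homo, beside a median of -0.01 over all genes tested. Exact two-sided permutation p-values for genotype ran from 0.205 for Ndn to 0.966 for Nnat, where 0.0013 is the smallest the design allows. The members' standard errors had a median of 0.23 on the log2 scale, and their intervals below bound what differences remain compatible with the data. In whole tissue, fewer cells of a type and less RNA per cell cannot be told apart.

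**Figure D1:**
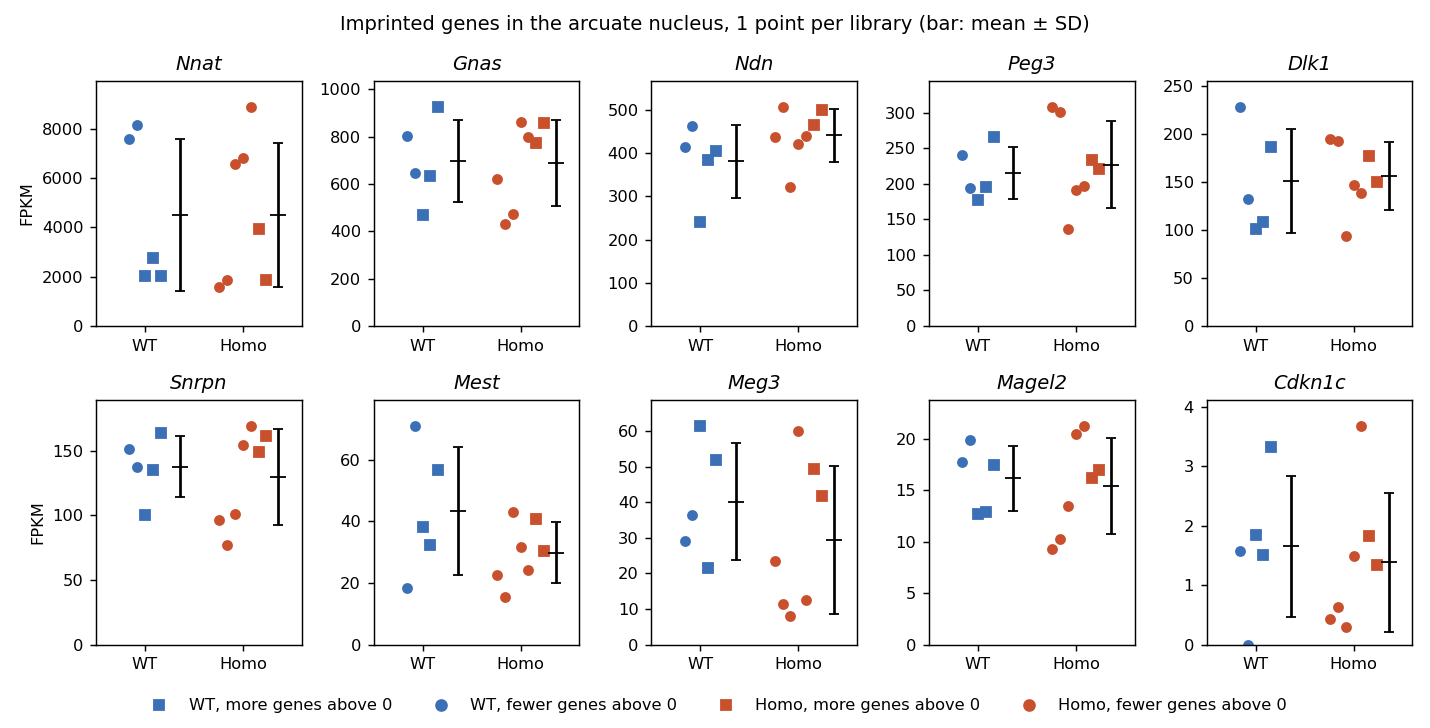
Level (FPKM, linear axes from 0) of the 10 imprinted genes in each of 5 WT and 7 Homo libraries, with squares for libraries with more genes above 0 and circles for those with fewer, and the mean ± SD beside each group. The genotypes overlap in every gene, and Nnat has a group of high libraries, from 6574 to 8881 FPKM, in both genotypes.

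By how many genes were above 0, the libraries fell into 2 sets on either side of the widest gap. The libraries also differed in marker transcripts, and whether this affected the members was not tested. WT 3, WT 4, WT 5, Homo 6 and Homo 7 had 18141 to 18635 genes above 0 and the other 7 libraries had 15742 to 16467, so genotype was unevenly spread over the sets. In WT 3, the summed level of 12 ARC neuron markers, all of them present, was 1357 FPKM, against 2441 to 5276 FPKM in the other libraries. Transcripts of growth hormone (Gh), a pituitary product, were at 61.5 FPKM in WT 3, 64.5 in WT 5 and 54.5 in Homo 7, and at most 0.139 elsewhere. Cga, another of the 8 listed pituitary markers, had a different pattern. It was at 50.2 FPKM in WT 3, 9.37 in Homo 4, 0.996 in WT 5 and 0 in Homo 7. The summed level of 8 microglial markers was 64.9 to 110.04 FPKM in WT and 96.2 to 164 FPKM in Homo (exact permutation p = 0.00758, adjusted p = 0.0758 over 10 marker lists), and its part in the members' values was not tested.

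Magel2, Ndn and Snrpn, of the Prader-Willi cluster on chromosome 7, were above 0 in every library of both genotypes, while their neighbours Mkrn3 and Peg12 were at or near 0 (means of 0.0336 and 0.240 FPKM). Magel2 (chr7:62377010-62381640, plus strand) encodes a MAGE family protein that helps a ubiquitin ligase steer membrane protein recycling in hypothalamic neurons. The WT libraries, from 1 to 5, held 17.7, 19.9, 12.7, 12.9 and 17.4 FPKM, and Homo ran from 9.28 (Homo 1) through a median of 16.2 to 21.2 (Homo 5). Homo 1 and Homo 2 lay below all WT libraries and Homo 4 and Homo 5 above them, so the Homo values surrounded the WT values. The log2 fold change was -0.10 (SE 0.23, 95% interval -0.59 to 0.40, limma adjusted p = 0.983).

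Ndn (chr7:62346569-62350262, plus strand) encodes necdin, a MAGE family protein of postmitotic neurons that restrains cell cycling and supports survival. WT levels were 415, 463, 241, 383 and 405 FPKM, and Homo levels ran from 323 (Homo 3) through a median of 441 to 506 (Homo 2). The low WT value was that of WT 3, the library poorest in ARC neuron markers, and 3 of 7 Homo libraries exceeded every WT library. Ndn had the narrowest spread of the members, with a coefficient of variation of 17.9% over the 12 libraries, below which fell 9.14% of genes by SD on the log2 scale. Its log2 fold change of 0.23 (SE 0.18, interval -0.15 to 0.61, limma adjusted p = 0.915) became 0.07 without WT 3.

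Snrpn (chr7:59974149-60005064, minus strand) encodes SmN, the neuronal form of a core spliceosome protein, on a transcript that also carries the upstream reading frame Snurf. WT levels were 151, 138, 100.4, 135 and 163 FPKM. Among Homo libraries it was lowest in Homo 2 at 76.7, had a median of 149 and reached 169 FPKM in Homo 5. The low libraries were Homo 1, Homo 2, Homo 3 and WT 3, so both genotypes held low and high values (log2 fold change -0.12, SE 0.22, interval -0.59 to 0.35, limma adjusted p = 0.968). Snurf (chr7:59995449-60005049, placed by symbol) shares exons with Snrpn, and its row, with an exonic length of only 216 bases in the annotation, held a mean of 1555 FPKM. It was highest in Homo 1 at 2175 and Homo 2 at 2251 FPKM, where Snrpn was low, and lowest in Homo 4 at 945 and Homo 5 at 915 FPKM, where Snrpn was high. WT 5 and Homo 7 were high in both rows, with Snurf at 1727 and 1723 FPKM. Over the 12 libraries the rows had r = -0.57 (permutation p = 0.0553) and rho = -0.41 (permutation p = 0.183). Without Homo 1 and Homo 2 r was -0.21. Within the 7 libraries with fewer genes above 0, which include Homo 1 and Homo 2, r was -0.89 (exact permutation p = 0.0145). WT libraries lay at 1553, 1096, 1339, 1543 and 1727 FPKM (log2 fold change 0.11, SE 0.24, limma adjusted p = 0.981). How fragments of the shared exons were divided between both rows cannot be told from FPKM.

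Peg3 (chr7:6703892-6730431, minus strand), which encodes a large zinc finger protein linked to maternal care and energy balance, stood at 239.8, 194, 178, 196 and 266 FPKM in WT. Homo values ran from 137 in Homo 3 through a median of 221 to 307 in Homo 1. Homo 1 and Homo 2 were above all WT libraries and Homo 3 below them, with the remaining 4 within the WT range. The log2 fold change was 0.05 (SE 0.20, interval -0.38 to 0.48, limma adjusted p = 0.990). Of its neighbours, Usp29, a ubiquitin protease gene that starts beside Peg3 on the other strand, had a mean of 39.8 ± 1.68 FPKM (SD, n = 5) in WT and 35.5 ± 4.96 (SD, n = 7) in Homo (limma adjusted p = 0.919).

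On chromosome 12, Dlk1 and Meg3 are expressed from opposite parental copies. Dlk1 (chr12:109452823-109463336, plus strand), a Notch-like membrane protein and regulator of adipogenesis, was paternally expressed by textbook account and stood at 228, 132, 101.03, 109 and 186 FPKM in WT. Its Homo levels ran from 94.1 in Homo 3 through a median of 149.9 to 194 in Homo 1, and 6 of 7 lay within the WT range. The log2 fold change was 0.08 (SE 0.24, interval -0.42 to 0.58, limma adjusted p = 0.986).

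Meg3 (chr12:109541001-109571726, plus strand) is a long noncoding RNA made from the maternal copy. It stood at 29.2, 36.6, 61.6, 21.4 and 52.0 FPKM in WT, and its Homo levels ran from 7.89 in Homo 3 through a median of 23.5 to 60.1 in Homo 4. Homo 2, Homo 3 and Homo 5 lay below all WT libraries, and the other 4 overlapped WT. This was the member with the largest fitted difference, a log2 fold change of -0.67, and the interval from -1.70 to 0.36 (SE 0.48, limma adjusted p = 0.915) allowed a level in Homo from 0.307 to 1.28 times that of WT. Within the 5 libraries with more genes above 0 the difference was 0.14, and within the other 7 it was -0.86. Rtl1, a retrotransposon-derived gene of the same cluster, was low, at 3.07 ± 0.869 FPKM (SD, n = 5) in WT and 3.74 ± 1.16 (SD, n = 7) in Homo (limma adjusted p = 0.937).

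Gnas (chr2:174284320-174346744, plus strand) encodes the stimulatory G protein alpha subunit that couples melanocortin and other receptors to cyclic AMP, and the row also takes in alternative first exons. It stood at 802, 647, 471, 633 and 924 FPKM in WT and ran from 432 in Homo 2 through a median of 775 to 863 in Homo 4. WT 3, Homo 2 and Homo 3 were low, and 6 of 7 Homo libraries were within the WT range. The log2 fold change was -0.03 (SE 0.22, interval -0.51 to 0.45, limma adjusted p = 0.994). Nespas, the antisense RNA at the same locus, stood at 13.9 ± 9.51 FPKM (SD, n = 5) in WT and 15.1 ± 8.65 (SD, n = 7) in Homo, and without a stated strand setting reads of the overlapping exons cannot be told apart.

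Nnat (chr2:157560078-157562522, plus strand) was the most abundant member in every library, and its highest library was 5.62 times its lowest, beside 7.80 times for Meg3. WT levels were 7609, 8153, 2018, 2751 and 2029.8 FPKM, and Homo levels ran from 1579 (Homo 1) through a median of 3921 (Homo 6) to 8881 FPKM (Homo 5). WT 1, WT 2, Homo 3, Homo 4 and Homo 5 were high, all among the libraries with fewer genes above 0, but Homo 1 and Homo 2 of the same set were low. The genotype difference was -0.02 on the log2 scale with a wide interval, -1.18 to 1.14 (SE 0.54, limma adjusted p = 0.995). Between the sets, Nnat was lower by -1.15 (log2, SE 0.48, unadjusted p = 0.0317, limma adjusted p = 0.534) in libraries with more genes above 0, and no member was among the 0.178% of genes called for the library set. Its SD on the log2 scale exceeded that of 86.6% of genes tested, beside 85.8% for Meg3, 69.0% for Cdkn1c and 63.8% for Mest.

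Mest and Cdkn1c completed the list. Mest (chr6:30723547-30748465, plus strand), an enzyme of the hydrolase fold and a paternally expressed growth gene, stood at 18.2, 71.0, 38.2, 32.2 and 56.5 FPKM in WT and ran from 15.5 in Homo 2 through 30.3 to 43.1 in Homo 3. WT held both the highest library and one of the lowest, and 6 of 7 Homo libraries were within the WT range (log2 fold change -0.45, SE 0.32, interval -1.14 to 0.24, limma adjusted p = 0.915). Cdkn1c (chr7:143458339-143461050, minus strand), the maternally expressed cell cycle inhibitor p57, was listed at 0 in WT 2 and at 1.58, 1.84, 1.51 and 3.33 FPKM in the other WT libraries. It ran from 0.299 in Homo 3 through 1.34 to 3.68 in Homo 5. From the lowest steps of the table these values stood for about 50.3 fragments at most in a library, and for about 2.60 in Homo 3, so its log2 fold change of -0.14 (SE 0.41, interval -1.02 to 0.74, limma adjusted p = 0.987) had little depth behind it. The table gives no counts and these fragment numbers are estimates.

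**Figure D2:**
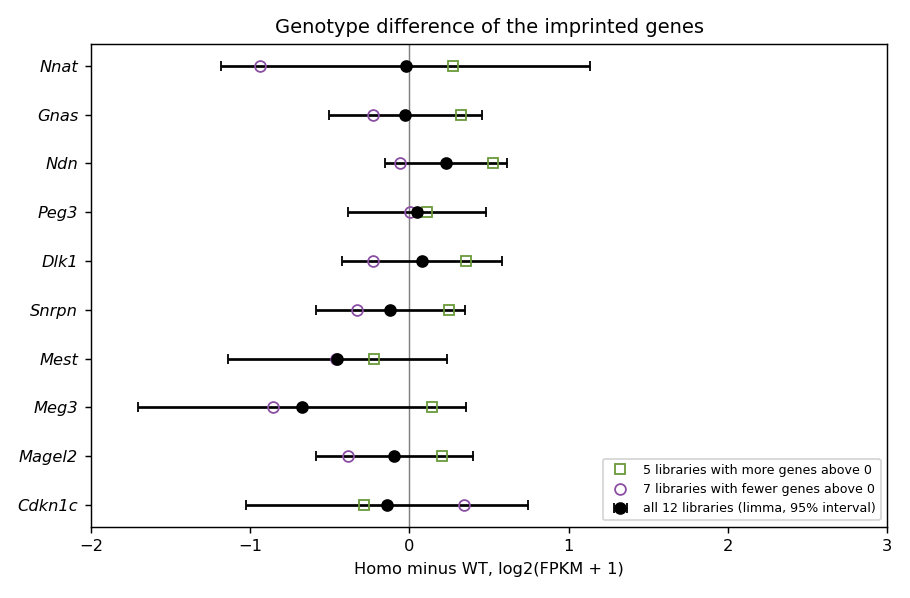
Difference between genotypes of each member on the log2(FPKM + 1) scale, with the limma estimate and its 95% interval over all 12 libraries (black) and the difference of means within each library set (open symbols). Every interval spans 0, and the estimate within the larger set is below that within the smaller set for 9 of 10 members, Cdkn1c being the other.

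The sign of most member differences depended on the library set. In the 5 libraries with more genes above 0, 8 of 10 members were higher in Homo, with a median log2 difference of 0.23, beside 64.6% of all genes tested higher and a median of 0.13. In the other 7 libraries 2 of 10 were higher, with a median of -0.28, beside 40.1% of all genes and a median of -0.08. The term for a genotype difference that changes with the set was called for none of the members (smallest limma adjusted p = 0.877). Permuting genotype within the sets gave exact p-values from 0.371 to 0.995 over the members, with 0.0048 the smallest possible.

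Members were next compared with each other across the 12 libraries, which share the sets above and a common amplification. Of 45 pairs, 3 had a permutation p adjusted over the pairs under 0.05. Snrpn and Gnas, on different chromosomes, tracked most closely, with Pearson r = 0.92 (permutation adjusted p = 0.00135) and Spearman rho = 0.90 (permutation adjusted p = 0.00382). Without Homo 1 and Homo 2, the libraries farthest from the Snrpn median, r was 0.97, and within the 7 libraries with fewer genes it was 0.91 (exact p = 0.00238). Correlations with Snrpn hold for its own row, since how fragments were divided between it and Snurf is not known. Peg3 and Dlk1, also on different chromosomes, had r = 0.87 (permutation adjusted p = 0.00652) and rho = 0.91 (permutation adjusted p = 0.00382), with r = 0.82 without Homo 1 and Homo 3 and 0.89 within the 7 libraries (exact p = 0.00774).

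Of the 4 pairs that share a cluster 1 passed, and of the 41 other pairs 2 passed. With 4 pairs these shares cannot be compared. Magel2 and Snrpn had r = 0.86 (permutation adjusted p = 0.00870) and rho = 0.85 (permutation adjusted p = 0.0124), and r was 0.76 without Homo 1 and Homo 2 and 0.92 within the 7 libraries (exact p = 0.00813). The Snurf row, which shares exons with Snrpn, had another pattern. Snurf was highest in Homo 1 and Homo 2, where Magel2 was lowest, and lowest in Homo 4 and Homo 5, where Magel2 was highest. The correlation of Snurf with Magel2 or Gnas was not tested. Magel2 and its neighbour Ndn had r = 0.19 (permutation adjusted p = 0.827, rho = 0.10 with permutation adjusted p = 0.914). That value became 0.70 without Homo 1 and Homo 2, the libraries lowest in Magel2, in which Ndn stood at 436.5 and 506 FPKM. Ndn and Snrpn had r = 0.26 (permutation adjusted p = 0.7504, rho = 0.09 with permutation adjusted p = 0.914), which became -0.37 without WT 3 and Homo 3. Dlk1 and Meg3 had r = 0.16 (permutation adjusted p = 0.827, rho = 0.03 with permutation adjusted p = 0.938), and -0.19 without WT 1 and Homo 3. No pooled Pearson r is given for pairs of members that include Nnat, whose values fell into a high and a low group of libraries.

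**Figure D3:**
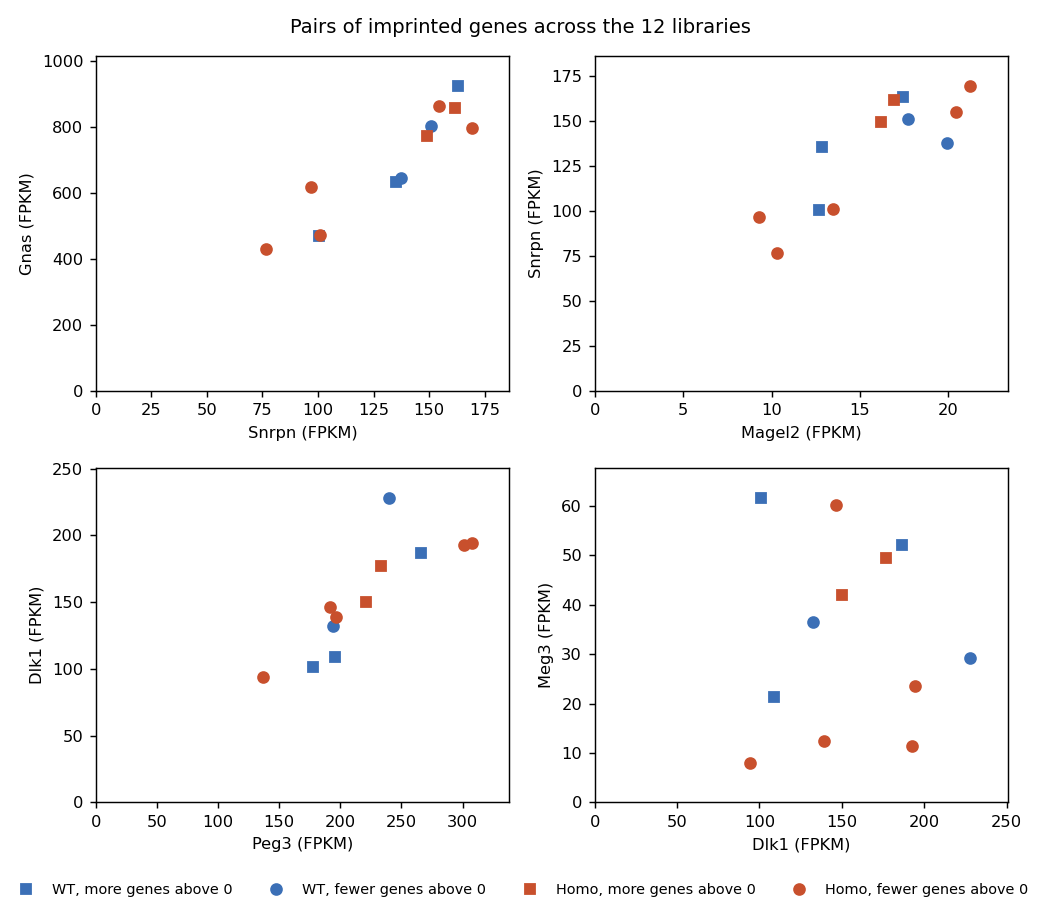
Levels (FPKM) of 4 pairs of members, 1 point per library, blue for WT and red for Homo, with squares for the libraries with more genes above 0. Snrpn with Gnas, Magel2 with Snrpn and Peg3 with Dlk1 rise together (r from 0.86 to 0.92 on the log2 scale), and Dlk1 with Meg3 scatter (r = 0.16).

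Several other genes of the table tracked these members as closely. Among 5873 genes with a mean of at least 10 FPKM, 10 had an r with Snrpn at or above that of Gnas, 23 an r with Peg3 at or above that of Dlk1 and 45 an r with Magel2 at or above that of Snrpn, each count including the partner itself. By contrast, Ndn stood at place 2835 for Magel2 and Meg3 at place 3545 for Dlk1, near the middle of the table. The genes most alike in pattern, given with r and no test, were Sar1b (0.96), Arf3 and Hsbp1 for Magel2, Rtn1 (0.98), Fam174a and Tecr for Snrpn, Atp5a1 (0.91), Ndufa1 and Sult4a1 for Ndn, and Zfp706 (0.94), Arl1 and Ctsb for Gnas. For Peg3 they were Wdr1 (0.96), Ctnnd1 and Ier3ip1, for Dlk1 Daxx (0.93), Syt11 and Cdc42se2, and for Meg3 Dgkb (0.91), Gm17131 and Nrbp2. Mest was most alike Nfia (0.92), Tnpo1 and Ccdc123, and Cdkn1c was most alike Kcnd2 (0.90), N4bp2l2 and Ube2r2. Each r was picked as the highest of all genes searched, so a high value is partly set by the choice. Cdkn1c also had few fragments behind it. Nnat was most alike Tac2 (0.92), the neurokinin B gene of an ARC neuron type, followed by Pld3 and Emc6. Tac2 was at 219.6, 214 and 283 FPKM in Homo 3, Homo 4 and Homo 5 and at 96.1 FPKM in Homo 1, and the r follows the high and the low Nnat libraries.

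**Figure D4:**
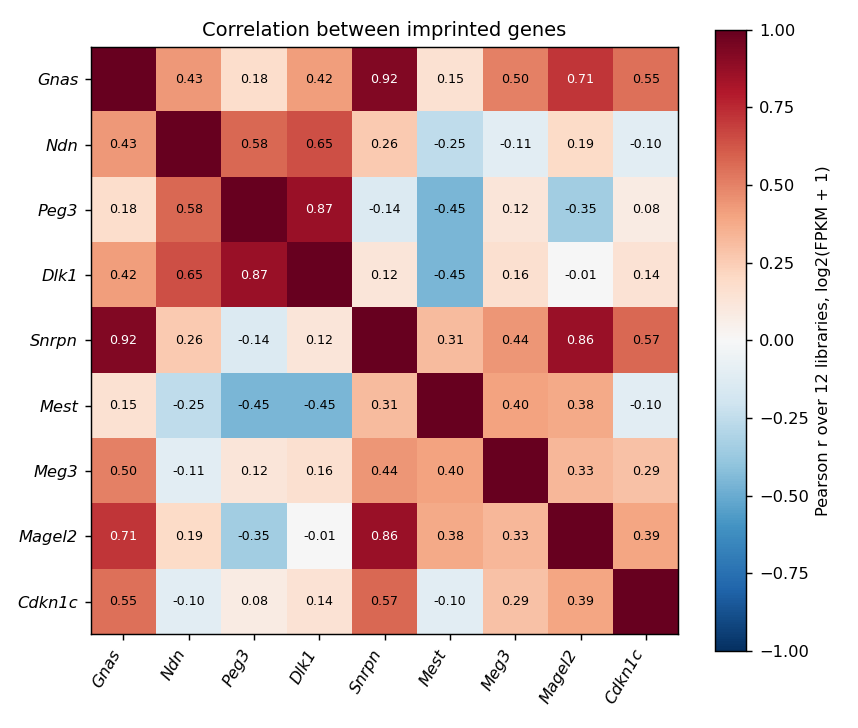
Pearson r over 12 libraries, on log2(FPKM + 1), between 9 members, ordered by mean level, without Nnat. The highest values are Snrpn with Gnas (0.92), Peg3 with Dlk1 (0.87) and Magel2 with Snrpn (0.86).

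A further list of 45 textbook imprinted genes, 40 of which had a row, gave the same outcome between genotypes. Of the 32 with a mean of at least 1 FPKM, 17 were higher and 15 lower in Homo, with a median log2 fold change of 0.01, and none was called (smallest limma adjusted p = 0.666). At an unadjusted p under 0.05, 4 of 32 (12.5%) were lower in Homo and 0 higher, beside 2.5% lower and 3.05% higher over all genes tested. The split depended on WT 1, without which 1 was lower and 2 higher, and on WT 5, without which 1 was lower and 0 higher. The most abundant after Snurf were Nap1l5, a nucleosome assembly protein gene, at 217 ± 42.6 FPKM (SD, n = 5) in WT and 286 ± 64.0 (SD, n = 7) in Homo, and Rasgrf1, a Ras activator of neurons, at 168 ± 34.6 and 177 ± 39.9 FPKM. Their limma adjusted p-values were 0.903 and 0.985.

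Blcap was the listed gene nearest to the threshold, and it surrounds Nnat. Nnat lies in an intron of Blcap (chr2:157556362-157571274, minus strand), a gene for a small membrane protein, with no shared exon. Blcap stood at 47.2, 40.1, 44.98, 44.3 and 48.0 FPKM in WT, a narrow range, and ran from 17.2 (Homo 1) through a median of 22.7 to 44.3 (Homo 6) in Homo. In Homo 6 it was within the WT range and in the other 6 Homo libraries below it. The log2 fold change was -0.85 (SE 0.22, interval -1.33 to -0.38, unadjusted p = 0.00175), and it did not pass after adjustment (limma adjusted p = 0.666). Within the sets the difference was -0.38 where more genes were above 0 and -1.02 in those with fewer. In WT 3, WT 4 and WT 5, where Nnat was low, Blcap stood as high as in WT 1 and WT 2.

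The other 3 were Plagl1, Grb10 and Zim1. Plagl1, a zinc finger regulator of growth, stood at 132 ± 30.5 FPKM (SD, n = 5) in WT and 91.5 ± 22.7 (SD, n = 7) in Homo (log2 fold change -0.53, SE 0.20, limma adjusted p = 0.854). Grb10, an adaptor that restrains insulin receptor signalling and is expressed from the paternal copy in neurons, stood at 95.4 ± 23.6 and 68.0 ± 14.7 FPKM (log2 fold change -0.48, SE 0.20, limma adjusted p = 0.899). Zim1, the zinc finger neighbour of Peg3, stood at 6.98 ± 2.35 and 4.01 ± 1.62 FPKM (log2 fold change -0.68, SE 0.27, limma adjusted p = 0.876). The groups overlapped in each of them. Of the remaining cluster neighbours, Ube3a, the ubiquitin ligase gene of Angelman syndrome, stood at 12.8 ± 1.82 FPKM in WT and 14.7 ± 2.76 in Homo (limma adjusted p = 0.923). Copg2, which overlaps the end of Mest on the other strand, averaged 124 FPKM in WT and 131 in Homo (limma adjusted p = 0.997). Exons of Ube3a overlap Snhg14 on the other strand, and those of Rtl1 overlap microRNA genes. As for Nespas, reads of such overlaps cannot be told apart without a stated strand setting. In the Cdkn1c cluster, the transporter gene Slc22a18 was listed at 0 in WT 1, WT 2 and WT 5, at 0.451 in WT 4 and at 10.2 FPKM in WT 3, and ran from 0 in Homo 5 through a median of 1.61 to 3.72 in Homo 7 (limma adjusted p = 0.957). Dio3, Phlda2 and Kcnq1, neighbours of members, had means of 0.0826, 0.0432 and 0.0426 FPKM and were not tested.

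**Figure D5:**
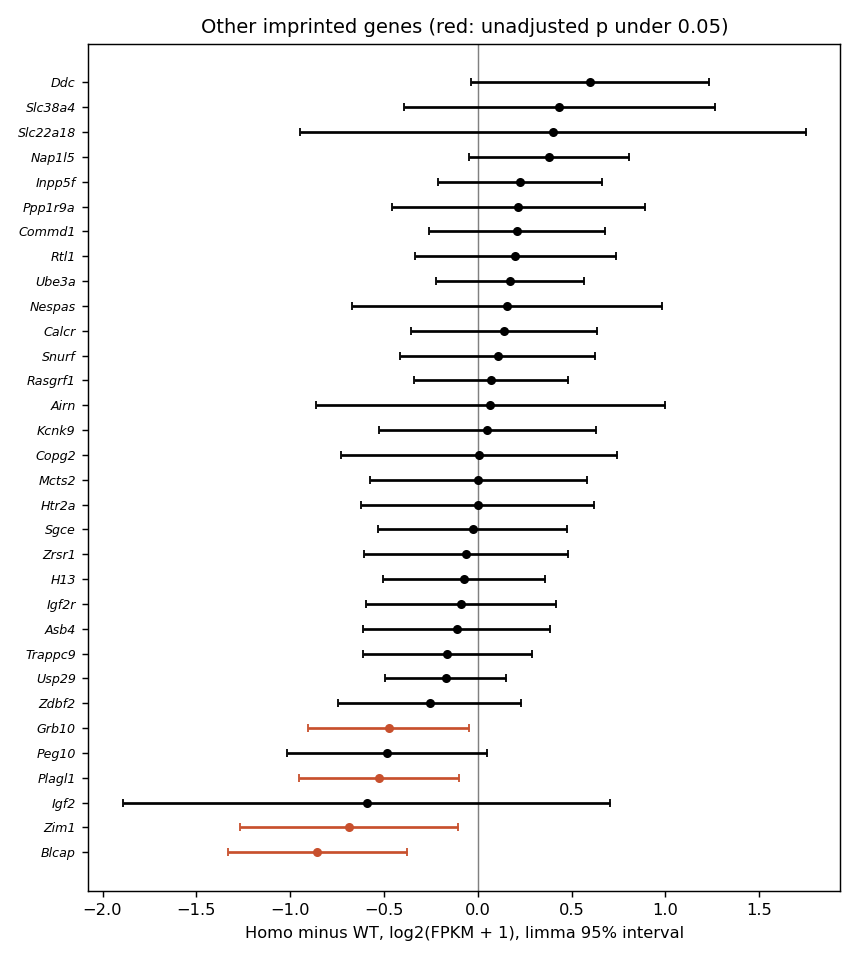
Difference between genotypes (log2(FPKM + 1), limma estimate and 95% interval) for the 32 other imprinted genes tested, ordered by size, with red for the 4 with an unadjusted p under 0.05. All 4, Blcap, Zim1, Plagl1 and Grb10, lie below 0, and none of the 32 passed after adjustment.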

How the data were processed

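RNA from laser-captured ARC was amplified and sequenced in 12 libraries (5 WT, 7 Homo), and the authors deposited 1 table of FPKM values, normalised for transcript length and library size. Per the submitters' processing notes, TopHat2 2.0.8, Cufflinks 2.2.1 and GRCm38 were used. Their settings, and whether strand was counted, are not given in the sources used here. All 12 columns were matched to samples by label. The table holds no counts, and 1 fragment per kilobase was estimated from its lowest values at 0.0851 to 0.123 FPKM in 5 libraries and 0.195 to 0.324 in the other 7.

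Genes with a mean of at least 1 FPKM (14017) entered a two-sided limma fit (version 3.58.1, R 4.3.3) of genotype alone on log2(FPKM + 1), with robust variances and a mean trend, so fold changes of low genes are understated. P-values were adjusted by Benjamini-Hochberg over all genes tested. The fit was tested on simulated data. Single values were compared by exact permutation, and correlations by 100000 permutations. Alternatives were another pseudocount, filters on low values, other scalings, the library sets, array weights and each library left out. Fits without the 3 libraries with growth hormone transcript, and the motif searches, were chosen after seeing the data.

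The members and lists were chosen with earlier results of these data known. Named are all members, other imprinted genes with an unadjusted p under 0.05, the 3 most abundant, neighbours in a member's cluster that passed the filter (those below it were added after their values were seen), and the 3 genes most like each member. Further marker lists (ARC and all neurons, pituitary, astrocytes, oligodendrocytes, endothelial cells, tanycytes, neighbouring nuclei and blood) gave exact permutation p-values of 0.112 to 0.817 between genotypes. Some summed levels spread widely between libraries. Neighbouring nuclei ran from 10.1 (WT 4) to 1031 FPKM (WT 5), blood from 5.03 (Homo 3) to 186 (WT 5) and oligodendrocytes from 90.1 (WT 4) to 557 (WT 5). All-neuron markers ran from 877 (WT 3) to 1276 FPKM (Homo 6). The part of this spread in the members' values was not tested. Positions are from GENCODE release M21 and promoters from RefSeq, both GRCm38. The listed genes without a row are not analysed here. Analyses used Python 3.11.15, scipy 1.17.1 and matplotlib 3.10.9.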

Additional observations from a re-analysis of the deposited data

Results flagged for a closer look

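Of the 23 imprinted genes named and tested, each group of libraries was examined for 1 value far from the others, and 2 of 46 groups held one, where chance marks about 1 in 20. Nespas, the antisense RNA of the Gnas locus, was at 32.7 FPKM in Homo 2, far above the other 6 Homo libraries. WT 1 reached 30.1 FPKM, above all but Homo 2. Slc22a18 was at 10.2 FPKM in WT 3, while the other WT libraries were at 0 to 0.451 FPKM. The Homo libraries ran from 0 to 3.72 FPKM.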

How the results depend on the processing

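No member and no other imprinted gene was called under any of the 25 alternatives (members' smallest limma adjusted p = 0.717), and Mest, Blcap, Plagl1 and Grb10 were lower in Homo in all of them. The other 9 members and Zim1 changed direction at least once. In the libraries with more genes above 0 alone, the sign turned for Magel2 (0.21), Snrpn (0.25), Meg3 (0.14), Gnas (0.33), Nnat (0.27) and Zim1 (0.025), and the members' median was 0.23. In the libraries with fewer genes it turned for Ndn (-0.058), Dlk1 (-0.23) and Cdkn1c (0.34). Array weights turned Magel2 (0.037), Gnas (0.085) and Nnat (0.088), the set as a term Gnas (0.023) and Cdkn1c (0.056), quantile normalization Peg3 (-0.042) and a pseudocount of 0.1 Cdkn1c (0.022). With WT 3, WT 5 and Homo 7 left out, Cdkn1c was at 0.21. Leaving out each library in turn gave ranges of -0.18 to 0.0085 for Magel2, -0.031 to 0.16 for Peg3, -0.045 to 0.25 for Dlk1, -0.16 to 0.086 for Gnas, -0.24 to 0.26 for Nnat and -0.46 to 0.072 for Cdkn1c. With a mean of at least 5 FPKM, Cdkn1c was not tested. The cause was not tested.

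The other imprinted genes with an unadjusted p under 0.05 numbered 7 (5 lower) under upper-quartile scaling, 1 (higher) in the libraries with more genes above 0, 1 (lower) without the libraries with growth hormone transcript, and 1 (without WT 5, lower) to 6 with single libraries left out. Among pairs, Magel2 with Ndn was at -0.069 within the 7 libraries and -0.45 after quantile normalization, and Ndn with Snrpn at -0.37 without 2 libraries, -0.087 within the 7 and -0.28 after quantile normalization. Dlk1 with Meg3 was at -0.19 without 2 libraries. Of the pairs that passed, quantile normalization lowered Snrpn with Gnas to 0.82, Peg3 with Dlk1 to 0.83 and Magel2 with Snrpn to 0.72. By Spearman's rho 4 pairs passed, the fourth being Magel2 with Nnat (rho = 0.84, permutation adjusted p = 0.0124). By Pearson correlation Magel2 with Nnat did not pass (permutation adjusted p = 0.107).

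Libraries of WT and Homo that share a replicate number did not deviate together (correlations -0.05 to 0.03, with 0 of 5 WT libraries most like their own number). What the numbers mean is not stated in the sources used here, and a check of 5 pairs cannot exclude a pairing. With a replicate block over numbers 1 to 5 no member was called, Nnat was at 0.15 and Meg3 at -1.05. Without the block the same 10 libraries gave the same estimates, with 1 member, Meg3, at an unadjusted p under 0.05.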
